A study of Mus musculus with 6 samples.

Results

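The 10 genes described here coat or fuse lipid droplets, or take part in breaking down the triglyceride stored in them: Cidea, Cideb, Cidec, Plin2, Plin4, Plin5, G0s2, Pnpla2, Abhd5 and Mgll. They were taken by name from the array annotation, which gave 10 of the 18193 genes measured, with 17 of the 34945 probe sets that name a single gene. The main value of a gene is its brightest probe set by the mean over 6 arrays, and other probe sets are given beside it. RNA came from whole liver of male C57BL/6J mice aged 8 weeks and kept on normal chow, with 2 arrays, labelled biological replicates, in each of 3 groups. The first group was wild-type and fed, the second wild-type and without food for 24 h, and the third Cnot3+/- and also without food for 24 h. Mice without food were housed singly. The Cnot3 protein belongs to CCR4-NOT, the main deadenylase of mRNA. Which stretch of Cnot3 is missing is not given in the sources used here, and no group was both Cnot3+/- and fed, so the genotype could be compared in the fasted state only.

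A lipid droplet is a core of triglyceride and sterol ester under a single phospholipid layer, to which coat proteins bind. Perilipins cover the surface and control access of lipases, and CIDE proteins bring droplets together so that lipid passes from small to large ones. Triglyceride is then cut in steps: adipose triglyceride lipase, the product of Pnpla2, acts first, Abhd5 activates it, G0s2 inhibits it, and Mgll cuts the last ester bond of monoglyceride. In fasting, fatty acids released by adipose tissue reach the liver, where part is stored in droplets until it is oxidised, made into ketone bodies or exported.

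All values are RMA levels on the log2 scale, so a difference of 1 is a 2-fold change. Array medians lay between 5.59 and 5.64, and a level at or under them was not shown to be above background; the 95th percentile of 80 receptor probe sets of the nose, genes a liver is not known to use, was 5.78. The Cnot3 probe set used here differed between the fasted groups by -0.01 (SE 0.13, 95% interval -0.33 to 0.30, limma adjusted p = 0.993). That interval holds ratios to the wild-type level from 0.796 to 1.23. Whether the probe set lies in the missing stretch is not known, so it does not check the genotype labels. All 10 hepatocyte markers were bright, with means from 13.09 to 15.20. Among 9 measured adipocyte markers, 6 had mean levels at or under the array medians and 3 lay above them. The brightest was Lipe, at a mean of 8.67. Adipoq, which encodes adiponectin, was among the 6 and had group means of 3.99, 4.56 and 4.13 in the order the groups were introduced. In whole tissue, fewer cells of a type and less RNA per cell cannot be told apart.

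In wild-type liver without food, 4 of the 10 genes rose and none fell: the droplet fusion gene Cidec, the coat genes Plin2 and Plin5, and the lipase gene Pnpla2. Over all 18193 genes, 1.87% rose and 3.15% fell in the same test, limma with Benjamini-Hochberg adjustment at 0.05. The 6 genes that did not pass were Plin4, G0s2, Mgll, Cidea, Cideb and Abhd5, of which Plin4 and G0s2 had differences above 1 on the log2 scale. The median difference of the 10 genes was 1.27, against 0.02 for all genes. In 7 of the 10 the fed and fasted wild-type arrays did not overlap, a state that 50.8% of all genes showed.

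**Figure D1:**
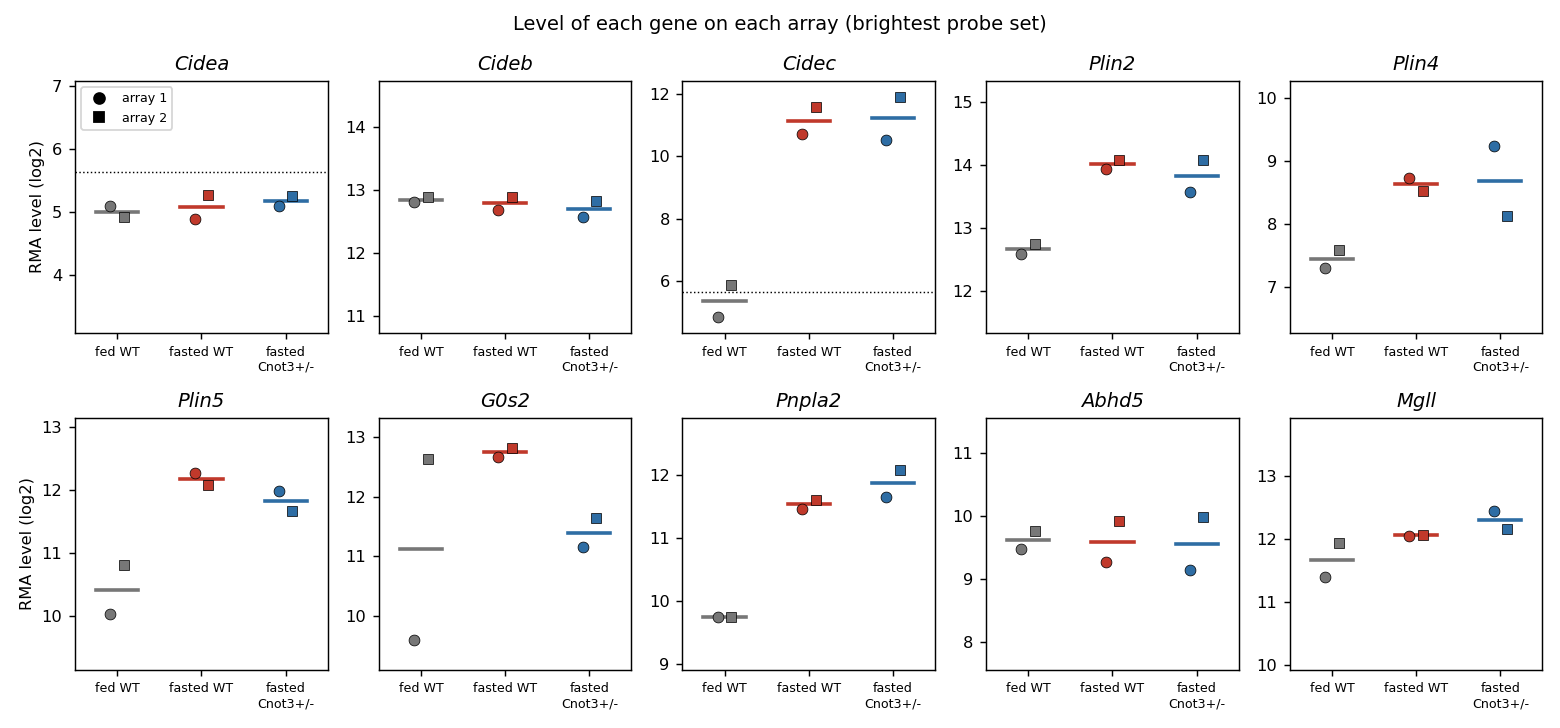
RMA level (log2) of each gene on each of the 6 arrays, by group (circles for array 1, squares for array 2 of a group, bars for group means, dotted line for the highest array median, 5.64). Each panel has its own level axis. Cidec rises from near background to above 10 on the 4 fasted arrays, Pnpla2, Plin2 and Plin5 are higher on the fasted arrays, and the 2 fed arrays of G0s2 lie at 9.60 and 12.63.

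Cidec, whose protein gathers at droplet contacts and drives their fusion into large droplets, read 4.83 and 5.87 in the fed mice, 10.72 and 11.58 in wild-type mice after the fast, and 10.52 and 11.92 in Cnot3+/- mice after it. Both fed arrays lay near background, array 1 under the array medians and array 2 above them and above the receptor level. All 4 fasted arrays lay far above both. The group means were 5.35 ± 0.73 and 11.15 ± 0.61 (SD, n = 2 arrays) in fed and fasted wild-type liver, a measured difference of 5.80 (SE 0.52, limma adjusted p = 0.00308). The 95% interval of that difference holds ratios to the fed level from 23.7 to 131. With each fed array set to its own median where the gene read lower, the level in fasted wild-type liver was an estimated 42.3-fold higher than in fed liver. That estimate does not count the spread between arrays, and ran from 31.3-fold to 57.1-fold with single arrays left out. The 250 bases before a RefSeq start of Cidec (GRCm38.p6, chr6:113435761-113436010, minus strand) are shown because Cidec had the widest fed to fasted gap of the 10 genes. They run 5′ to 3′, all in lower case because none of the 6 motifs searched, described further on, was found in them.
Cidec: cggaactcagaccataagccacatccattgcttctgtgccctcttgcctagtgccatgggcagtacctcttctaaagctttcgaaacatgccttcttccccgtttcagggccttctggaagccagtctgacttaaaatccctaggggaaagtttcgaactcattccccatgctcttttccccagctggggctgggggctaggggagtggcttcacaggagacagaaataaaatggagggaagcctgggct

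The other CIDE genes did not pass the test. Cideb, which in hepatocytes helps load triglyceride into very low density lipoprotein, read 12.80 and 12.88 in the fed mice, 12.68 and 12.88 in wild-type mice after the fast, and 12.56 and 12.83 in Cnot3+/- mice after it. These groups overlapped, and the fasting difference was -0.06 with a 95% interval from -0.39 to 0.28 (limma adjusted p = 0.893). Its probe set is of a kind shared between transcripts. Cidea, known for brown fat and for fatty liver, read between 4.90 and 5.27 on all 6 arrays, under every array median, so no level above background was shown for it in any group. Its fasting difference of 0.08 (limma adjusted p = 0.866) therefore carries no fold.

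Plin2, the main droplet coat of hepatocytes, read 12.58 and 12.74 in the fed mice, 13.93 and 14.08 in wild-type mice after the fast, and 13.57 and 14.07 in Cnot3+/- mice after it. All 4 fasted arrays were above both fed arrays. The rise in wild-type liver was 2.55-fold (log2 1.35, SE 0.18, limma adjusted p = 0.01). The adjusted p was 0.0514 without fed array 1, 0.0715 without fasted wild-type array 1 and 0.078 without fasted wild-type array 2, at differences from 1.27 to 1.42.

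Plin5, which holds droplets at mitochondria and binds both the lipase and its activator, read 10.02 and 10.80 in the fed mice, 12.27 and 12.07 in wild-type mice after the fast, and 11.99 and 11.66 in Cnot3+/- mice after it. The fed arrays lay further apart than either fasted pair, and all 4 fasted arrays were above both of them. The rise in wild-type liver was 3.38-fold (log2 1.76, SE 0.25, limma adjusted p = 0.0124). Its other probe set gave 1.63 (SE 0.27, adjusted p = 0.044 in a fit of every probe set). Without fasted wild-type array 1 the adjusted p was 0.109, and without array 2 it was 0.0682.

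Plin4, a coat protein best known from adipocytes and muscle, is the chromosome neighbour of Plin5 in the RefSeq annotation. It read 7.29 and 7.59 in the fed mice, 8.73 and 8.52 in wild-type mice after the fast, and 9.23 and 8.12 in Cnot3+/- mice after it. The fed arrays were below all fasted arrays, but the 2 fasted Cnot3+/- arrays lay 1.11 apart. The fasting difference was 1.18 (SE 0.33) and did not pass in the fit of all 6 arrays (limma adjusted p = 0.0947). In a fit of the 4 wild-type arrays alone, which leaves out the spread of the Cnot3+/- arrays, the SE was 0.15 and the adjusted p was 0.012.

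The 250 bases before the RefSeq starts of Plin2 (GRCm38.p6, chr4:86670060-86670309, minus strand) and Plin5 (GRCm38.p6, chr17:56117549-56117798, minus strand) are shown because both coat genes rose and these windows hold AGGTCA, the core element of nuclear receptors such as PPARalpha. Capitals mark the match, which in Plin2 lies on the opposite strand and so reads TGACCT. Plin5 has another RefSeq start, whose window (chr17:56117299-56117548) holds no AGGTCA and is not shown.
Plin2: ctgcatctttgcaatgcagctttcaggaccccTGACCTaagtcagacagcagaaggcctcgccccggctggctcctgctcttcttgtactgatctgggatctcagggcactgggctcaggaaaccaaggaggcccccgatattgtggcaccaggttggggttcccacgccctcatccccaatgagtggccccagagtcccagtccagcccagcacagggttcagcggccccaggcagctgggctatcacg
Plin5: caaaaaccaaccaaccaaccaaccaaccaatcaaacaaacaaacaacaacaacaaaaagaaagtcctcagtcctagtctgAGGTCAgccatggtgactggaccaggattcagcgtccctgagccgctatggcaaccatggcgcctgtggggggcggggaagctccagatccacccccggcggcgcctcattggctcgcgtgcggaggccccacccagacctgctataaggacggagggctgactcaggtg

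Pnpla2, which encodes the lipase that starts triglyceride breakdown, read 9.74 and 9.74 in the fed mice, 11.47 and 11.60 in wild-type mice after the fast, and 11.66 and 12.07 in Cnot3+/- mice after it. The 3 groups did not overlap, and the order of their means was fed, fasted wild-type, fasted Cnot3+/-, although the last pair was not told apart by the test. The rise in wild-type liver was 3.47-fold (log2 1.79, SE 0.16, limma adjusted p = 0.00308). With single arrays of the 2 wild-type groups left out it ran from 1.72 to 1.86, with adjusted p from 0.0176 to 0.0318. The bright probe set of Pnpla2 is of a kind shared between transcripts. The other one lay under the array medians, at 4.16 to 5.10, and differed by 0.11 (SE 0.19), so the difference was 0.95 when both were averaged, which still passed (adjusted p = 0.0256). With that dim probe set alone, in a fit without shared probe sets, the call was lost (adjusted p = 0.826). The 250 bases before the RefSeq start (GRCm38.p6, chr7:141454938-141455187, plus strand) are shown because Pnpla2 was the lipase gene that rose. They hold none of the motifs searched.
Pnpla2: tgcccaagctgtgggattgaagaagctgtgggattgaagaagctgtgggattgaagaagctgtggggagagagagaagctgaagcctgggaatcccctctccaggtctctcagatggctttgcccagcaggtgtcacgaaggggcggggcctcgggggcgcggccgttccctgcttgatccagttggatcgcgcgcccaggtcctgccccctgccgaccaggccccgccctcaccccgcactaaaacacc

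G0s2, the inhibitor of that lipase, read 9.60 and 12.63 in the fed mice, 12.67 and 12.82 in wild-type mice after the fast, and 11.15 and 11.64 in Cnot3+/- mice after it. The fed arrays differed 8.17-fold from each other, with fed array 2 close to the fasted wild-type arrays and fed array 1 below every other array. The fasting difference of 1.63 had an SE of 0.82 and a 95% interval from -0.29 to 3.54, and did not pass (limma adjusted p = 0.345). It was 0.11 without fed array 1 and 3.14 without fed array 2, and the adjusted p without array 2 was 0.00679. The fed arrays therefore give no single fed level for G0s2. Only 2 genes of 18193 lay further apart on the fed arrays. These were Igfbp1, an insulin-repressed secreted protein, at 12.26 and 8.33, and Angptl8, a secreted protein induced by feeding and insulin, at 9.25 and 12.35; both were named after their values were seen.

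Abhd5, the activator of the lipase, read 9.49 and 9.78 in the fed mice, 9.28 and 9.93 in wild-type mice after the fast, and 9.15 and 9.99 in Cnot3+/- mice after it. All 3 groups overlapped. The fasting difference was -0.03 with a 95% interval from -0.76 to 0.69 (limma adjusted p = 0.974), and 0.052 as the mean over probe sets. That interval holds ratios to the fed level from 0.592 to 1.62. The second probe set, with less spread, gave -0.04 and an interval from -0.42 to 0.34, and the remaining probe set lay under the array medians.

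Mgll, which encodes monoglyceride lipase, read 11.39 and 11.93 in the fed mice, 12.04 and 12.06 in wild-type mice after the fast, and 12.45 and 12.16 in Cnot3+/- mice after it. The fed arrays were below all others. The fasting difference was 0.39 (SE 0.19) and did not pass (limma adjusted p = 0.339). The next 2 probe sets gave 0.47 (SE 0.17, adjusted p = 0.263) and 0.62 (SE 0.19, adjusted p = 0.19) in the fit of every probe set, so all 3 bright ones were higher in fasted liver and none passed. The fourth, with a mean level of 5.49 that is under the array medians, gave 0.04.

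**Figure D2:**
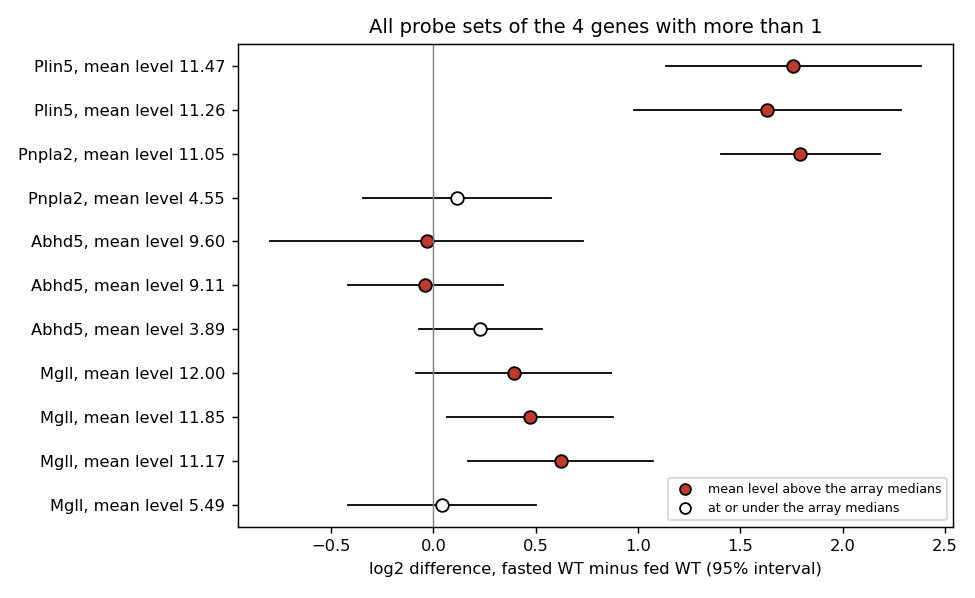
Log2 difference between fasted and fed wild-type liver for every probe set of the 4 genes with more than 1, with 95% intervals from the fit of every probe set, each labelled with its mean level over 6 arrays. Filled points have a mean level above the array medians and open points one at or under them. The 2 probe sets of Plin5 give 1.76 and 1.63, and the dim probe set of Pnpla2 gives 0.11 where the bright one gives 1.79.

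In fasted Cnot3+/- liver against fed wild-type liver, the genes that rose were again Cidec, Plin2, Plin5 and Pnpla2. Of all genes 3.88% rose and 3.68% fell in that comparison, which uses the same fed arrays as the wild-type comparison. In 7 of the 10 genes its groups did not overlap, against 48.0% of all genes. With the fed arrays set to their medians as before, the level of Cidec was an estimated 44.3-fold higher. That estimate was 27.2-fold without fasted Cnot3+/- array 2 and 72.0-fold without array 1. The 95% interval of its measured difference, 5.87, holds ratios from 24.9 to 137. Plin2 rose by 1.16 (SE 0.18, limma adjusted p = 0.0121), Plin5 by 1.41 (SE 0.25, adjusted p = 0.0198) and Pnpla2 by 2.12 (SE 0.16, adjusted p = 0.00145). The call of Plin2 was lost without fed array 1 (adjusted p = 0.0621) and that of Plin5 without fasted Cnot3+/- array 1 (adjusted p = 0.0764). The second probe set of Plin5 differed by 1.34 and missed the threshold in the fit of every probe set (adjusted p = 0.0559). Plin4 differed by 1.24 (adjusted p = 0.0685) and passed at 1.79 without fasted Cnot3+/- array 2 (adjusted p = 0.0101). Mgll differed by 0.64 (SE 0.19, adjusted p = 0.105). G0s2 differed by 0.28 (adjusted p = 0.91), with -1.24 without fed array 1 and 1.79 without fed array 2, and both of these passed (adjusted p = 0.0419 and 0.0203). Cidea, Cideb and Abhd5 differed by 0.17, -0.14 and -0.07, with adjusted p from 0.633 to 0.943.

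**Figure D3:**
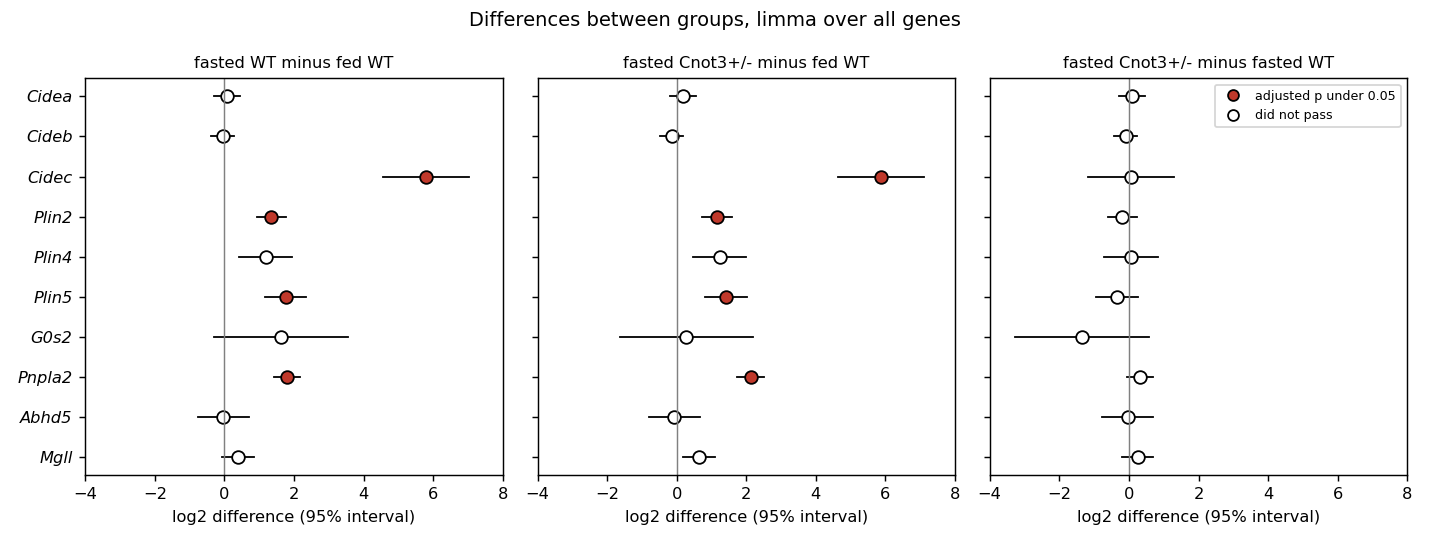
Log2 differences of the 10 genes in the 3 comparisons, with 95% intervals from limma (filled points passed at an adjusted p of 0.05, open points did not). Cidec stands at 5.80 and 5.87 against fed liver, both measured differences from a fed mean at background level. In the genotype panel every interval includes 0, and G0s2 has the lowest point, at -1.35.

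Between the fasted genotypes none of the 10 genes passed in limma's test, and none had an unadjusted p under 0.05. Of all genes 0% passed and 1011, or 5.56%, had an unadjusted p under 0.05, and a fit with a variance trend also called 0, with 997 genes at an unadjusted p under 0.05. The median difference of the 10 genes was 0.01. In 4 of them, Plin5, G0s2, Pnpla2 and Mgll, the fasted groups did not overlap, against 36.0% of all genes.

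G0s2 was lower on both fasted Cnot3+/- arrays than on both fasted wild-type arrays, by 1.35 on the log2 scale (0.392 of the wild-type level). Its 95% interval ran from -3.26 to 0.56, because the shared spread includes the fed arrays, and the limma adjusted p was 0.865. With the 4 fasted arrays alone the interval was -1.80 to -0.90, the unadjusted p 0.000307 and the adjusted p 0.719. By size, the genotype difference of G0s2 ranked 14 among the 18193 genes. With single arrays left out the difference ran from -1.59 to -1.11.

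Pnpla2 was higher on the Cnot3+/- arrays by 0.33 (SE 0.16, 95% interval -0.05 to 0.70, limma adjusted p = 0.863). Its other probe set was at background and gives no second reading. Mgll differed by 0.25 (interval -0.21 to 0.71), but by -0.02 and -0.08 on its next 2 probe sets. Plin5 differed by -0.34 (interval -0.94 to 0.25) and by -0.29 on its other probe set. Plin2 differed by -0.19, Cideb by -0.09, Cidea by 0.09, Plin4 by 0.05 and Abhd5 by -0.04, with groups that overlapped. Cidec differed by 0.07, and the interval from -1.16 to 1.30 would hold a change of up to 2.46-fold. The sign of several of these small differences turned with the scaling or with single arrays: that of Cidec and Plin4 after centring on bright genes, and those of Cidea, Cideb, Cidec, Plin2, Plin4 and Abhd5 when an array was left out.

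**Figure D4:**
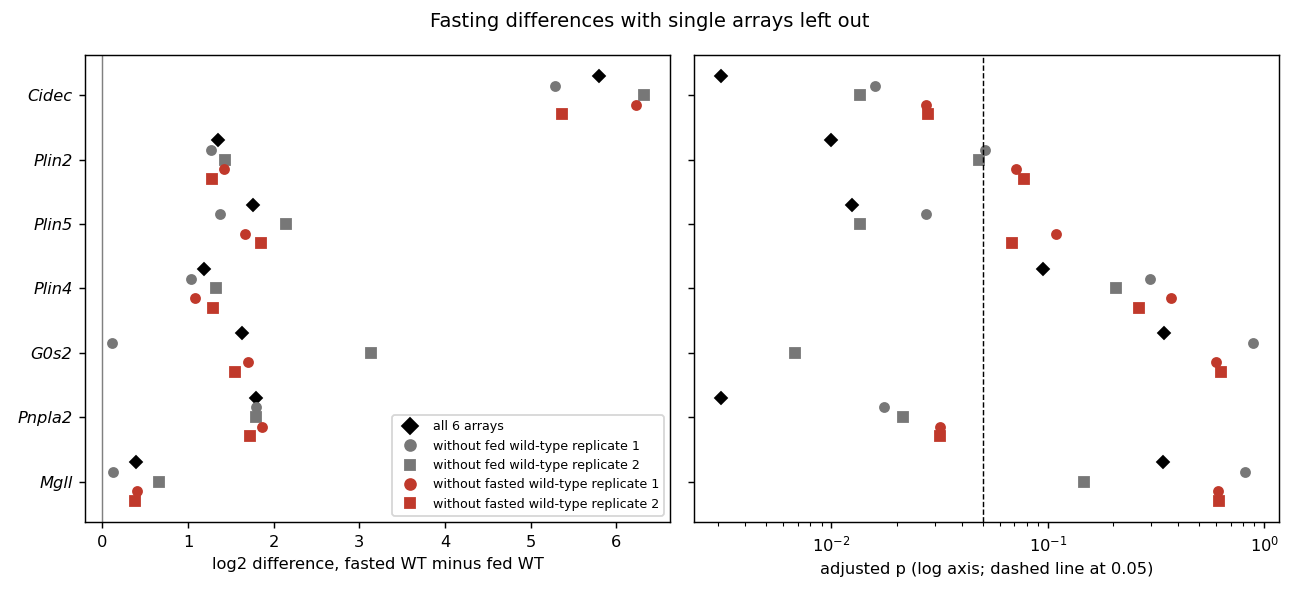
Fasting differences of 7 genes in wild-type liver (left, log2) and their limma adjusted p (right, log axis with a dashed line at 0.05), with all 6 arrays and with each wild-type array left out. Cidec and Pnpla2 stay under 0.05 throughout, Plin2 and Plin5 cross it when either fasted wild-type array is left out, Plin2 also without fed array 1, and G0s2 moves from 0.11 to 3.14 with the fed array that is kept.

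The promoter windows of the genes were searched for 6 motifs on both strands. These were a direct repeat of AGGTCA with 1 base between the copies, the nuclear receptor core AGGTCA itself, which any match of the repeat also holds, the forkhead element GTAAACA, the cAMP response element TGACGTCA, the E-box CACGTG and TATAAA. RefSeq windows were found for 9 of the 10 genes, 12 windows in all. AGGTCA was found in 3 of them, those of Plin2, Plin5 and Abhd5, and in 14.0% of all 32851 windows. The match in Abhd5, a gene that did not pass the fasting test, lies 64 to 69 bases before the start (GRCm38.p6, chr9:122351535-122351564, plus strand) and is shown for comparison with those of Plin2 and Plin5, with capitals marking the core on the opposite strand.
Abhd5: gcggcgtcgggcTGACCTtccttaccagtg

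The matches in Plin2 and Plin5 lie 213 to 218 and 165 to 170 bases before their starts. GTAAACA and CACGTG were each found in 1 window of Mgll, against 3.17% and 6.02% of all windows, and TATAAA in that of Cideb, against 12.4%. The repeat and the cAMP response element, held by 0.0335% and 1.55% of all windows, were found in none of the 12. These are matches of letters in 250 bases, not measured binding.

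Among 16 other measured genes listed for droplet proteins or droplet formation, 2 rose in fasted wild-type liver and none fell. Fitm2, which is needed for triglyceride to bud from the endoplasmic reticulum, rose by 0.67 (SE 0.13, limma adjusted p = 0.0331). Hsd17b13, a droplet enzyme of hepatocytes linked to fatty liver disease in humans, rose by 0.70 (SE 0.14, adjusted p = 0.0357). The median of these 16 was -0.09. Against fed liver, fasted Cnot3+/- liver had Fitm2 up and Acsl3 and Ldah down. In fasted wild-type liver Acsl3 differed by -2.00 (limma adjusted p = 0.0521) and Ldah by -0.33 (adjusted p = 0.187), without passing. Between the fasted genotypes they differed by -0.27 and -0.18. Of 11 other measured genes listed as lipases, not all of them known for neutral lipid, none rose and 2 fell in fasted wild-type liver. Their median was -0.21. The arylacetamide deacetylase Aadac fell by 0.80 (SE 0.15, adjusted p = 0.0327), and the carboxylesterase Ces1g by 1.66 (SE 0.24, adjusted p = 0.0124). Ces1g has close relatives whose RNA its probes may also bind. The same 2 fell in fasted Cnot3+/- against fed liver. No gene of either list passed between the fasted genotypes.

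Of 11 transcription regulators listed for droplet and lipase genes, Creb3l3 rose and Srebf1 and Mlxipl fell in fasted wild-type liver. Creb3l3 encodes CREBH, a liver factor that in mouse is known to activate Cidec in fasting, and rose by 0.96 (SE 0.13, limma adjusted p = 0.0114). Mlxipl, which encodes the glucose-responsive factor ChREBP, fell by 1.46 (SE 0.29, adjusted p = 0.036). Srebf1, the insulin-responsive driver of fatty acid synthesis, fell by 4.67 (SE 0.19). Fasted Cnot3+/- liver against fed liver had the same rise and, besides these falls, that of Pparg, by 0.90 (SE 0.16, adjusted p = 0.0195). In fasted wild-type liver Pparg differed by -0.67 without passing (adjusted p = 0.0627). None of the 11 passed between the fasted genotypes.

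Markers of other liver cells were set beside these results because macrophages, stellate cells and endothelial cells also hold droplets or express some of these genes. The summed level of 10 macrophage markers, all above the array medians, was 12.50 to 12.63 on the fed arrays, 12.94 to 13.03 on the fasted wild-type arrays and 13.22 to 13.72 on the fasted Cnot3+/- arrays. No macrophage marker passed for fasting in wild-type liver or for genotype, while 6 of 10 rose in fasted Cnot3+/- against fed liver. All 10 were higher in fasted than in fed wild-type liver (median 0.44), with 9 not overlapping, against 50.8% of all genes. All 10 were also higher in fasted Cnot3+/- than in fasted wild-type liver (median 0.46), with 8 not overlapping, against 36.0% of all genes. Their part in the differences of Plin2 or the other genes was not tested. Among 7 stellate cell markers Lrat, Col1a1 and Col3a1 fell and Dcn rose in fasted wild-type liver. Of the 7, 3 were higher and 4 lower than in fed liver (median -0.46). Their summed level was 12.19 to 12.20 on the fed, 12.36 to 12.39 on the fasted wild-type and 12.38 to 12.57 on the fasted Cnot3+/- arrays. Levels were summed before the log was taken, so Dcn, the brightest at a mean of 11.68, weighs most. In fasted Cnot3+/- against fed liver 1 of the 7 rose and 2 fell (median -0.44). Of 5 endothelial markers Lyve1 rose, and the sums were 10.36 to 10.47 on the fed, 10.61 to 10.70 on the fasted wild-type and 10.57 to 10.71 on the fasted Cnot3+/- arrays, so that both fed arrays lay below all fasted ones. The single markers were split. Against fed liver, 3 were higher and 2 lower in fasted wild-type liver (median 0.07). In fasted Cnot3+/- liver 2 were higher and 3 lower (median -0.06). Whether stellate or endothelial cells had a part in the differences of the 10 genes was not tested. The 9 adipocyte markers had sums from 9.66 to 10.06 on the fed, 9.96 to 10.03 on the fasted wild-type and 9.84 to 10.07 on the fasted Cnot3+/- arrays, ranges that overlap. The 5 neutrophil markers, 1 of them above the array medians, had sums of 7.48 to 7.54 on the fed, 7.35 to 7.69 on the fasted wild-type and 7.29 to 7.42 on the fasted Cnot3+/- arrays, the last below both fed arrays, and none passed in any comparison. The 6 skeletal muscle markers, 1 of them above the array medians, had sums of 7.65 to 7.80, 7.78 to 7.83 and 7.65 to 7.77 in the same order.

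Profiles over the 6 arrays were compared by the root mean square difference after each gene's own mean was removed, as a description. The 5 named genes nearest to Cidec were Fgf21 (0.90), Rab30 (1.17), Cgref1 (1.35), Egr1 (1.37) and Cdkn1a (1.45), where Cidec itself had a range of 7.09. Nearest to Plin2 were Pigl (0.12), Atf5, Pctp, Hsdl2 and Grpel2 (0.14). Nearest to Pnpla2 were Slc25a22 (0.12), Fbxo31, Lyve1, Insig2 and Psmd9 (0.19).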

How the data were processed

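The authors deposited log2 levels from RMA (named in the submitters' processing notes, version not given in the sources used here). RNA was purified with ISOGEN and RNeasy, per the labels' protocols. Values were used as deposited. Of 45101 probe sets, 64 are controls, 34945 name 1 gene and 932 several. Gene names were updated by gene ID through the RefSeq annotation, where 18032 of 18193 genes were found, and promoters are RefSeq's for GRCm38.p6. Each gene's brightest probe set entered limma 3.58.1 (R 4.3.3), fitted to 6 arrays and 3 groups at once (residual df 3, prior df 4.24), with Benjamini-Hochberg adjustment over all genes. SE is the moderated standard error, SD is over 2 arrays, and 2 arrays a group limit all precision. A second fit took every probe set. The script was tested on simulated data. Figures used matplotlib 3.10.9. The members and gene lists were chosen with earlier results of these data known. All members are named. Of each pathway list up to 6 genes that passed are named, and of marker lists any that passed for fasting in wild-type liver. Alternatives were another scaling, filter, probe set choice, variance model and set of arrays.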

Additional observations from a re-analysis of the deposited data

How the results depend on the processing

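Of 444 repeats of the 30 gene differences under these alternatives, 406 kept direction and side of the threshold, 9 no longer passed, 6 newly passed with the same sign and 23 changed sign. Not all repeats are distinct. Leaving out either array of the group not compared gave the same fit as the 4 compared arrays alone. Among those that newly passed, Plin4 for fasting was therefore counted 3 times from 1 fit. The signs that turned belonged to differences that had not passed, and 1 of them passed with its new sign, that of G0s2 against fed liver without fed array 1. The number of genes called ran from 137 to 1033 for fasting, 0 to 2 for genotype and 597 to 929 for fasted Cnot3+/- against fed liver with single arrays left out, and was 857 in the last with its own 4 arrays (1375 with all 6). The number of the 10 genes called for fasting ran from 2 to 5: it was 2 without either fasted wild-type array, where Cidec and Pnpla2 passed, and 5 without a Cnot3+/- array, where Plin4 was added, or without fed array 2, where G0s2 was; against fed liver, fasted Cnot3+/- liver had 3 to 5. Scaling with cyclic loess, the variance trend and the filter on dim genes changed no call of the 10; the filter left no value for Cidea, nor did leaving out shared probe sets for Cideb. Without probe sets shared between transcripts Pnpla2 was read from a probe set under the array medians and differed by 0.11 for fasting and 0.55 for fasted Cnot3+/- against fed liver, and Mgll, read from a probe set with a mean level under them, by -0.12 for genotype and -0.073 against fed liver. Abhd5 gave 0.052 for fasting as a mean over probe sets. Centring on bright genes gave -0.0019 for Cidec and -0.013 for Plin4 in the genotype comparison; the cause was not tested. With single arrays left out, fasting differences ran from -0.11 to 0.26 for Cidea, -0.16 to 0.045 for Cideb and -0.36 to 0.29 for Abhd5. Genotype differences ran from -0.089 to 0.28 for Cidea, -0.22 to 0.042 for Cideb, -0.64 to 0.77 for Cidec, -0.43 to 0.064 for Plin2, -0.50 to 0.61 for Plin4 and -0.45 to 0.38 for Abhd5. Against fed liver, fasted Cnot3+/- liver gave -1.24 to 1.79 for G0s2 and -0.49 to 0.35 for Abhd5. The labels number the arrays of each group but state no pairing. Deviations of arrays with the same number correlated at 0.45 between the fasted groups and at 0.04 and -0.01 with the fed group, so the numbers were not taken to pair all 3 groups. Whether they mark something shared by the fasted arrays is not given. Fasted Cnot3+/- array 2 had 42 genes at least 2-fold apart from fasted wild-type array 2 and 177 from the other Cnot3+/- array. Fasted wild-type array 2 was likewise nearer to that array than to the other wild-type array, with 42 against 72 such genes. Cnot3+/- array 1 had 113 such genes against fasted wild-type array 1, fewer than the 177 against the other Cnot3+/- array. Only fasted wild-type array 1 went the other way, with 113 such genes against Cnot3+/- array 1 and 72 against the other wild-type array. With the replicate block, 1206 genes were called for fasting, 0 for genotype and 1708 for fasted Cnot3+/- against fed liver, and the same count of the 10 genes (4, 0 and 4). Dim probe sets limit what can be said of Cidea in all groups and of Cidec in fed liver. The fed mean of Cidec lay under both background levels tried, although fed array 2 alone, at 5.87, lay above both.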

Other observations

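For most of these genes, though not all, the 2 arrays of a group differed in the same direction. Of the 10 genes, 9 read lower on fed array 1 than on fed array 2, the exception being Cidea, which lay at background. Over all genes 50.9% read lower on fed array 1. Array 1 minus array 2 was -3.03 for G0s2, -1.04 for Cidec, -0.78 for Plin5 and -0.0033 for Pnpla2. Igfbp1 had a difference of the opposite sign on the same arrays, 3.92.

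On the fasted arrays, 9 of the 10 genes had the same sign of the gap between arrays 1 and 2 in both genotypes, a state shown by 62.2% of all genes. Cidea, Cideb, Cidec, Plin2, G0s2, Pnpla2 and Abhd5 were higher on both arrays numbered 2, as were 36.5% of all genes. Plin4 and Plin5 were higher on both arrays numbered 1. For Cidec array 1 minus array 2 was -0.87 in wild-type and -1.40 in Cnot3+/- liver, and for Abhd5 it was -0.65 and -0.84. All 4 gaps were larger in size than the genotype difference of the same gene. For Plin4 the gaps were 0.21 and 1.11. The labels give no meaning to the array numbers beyond the replicate.

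Angptl8 read 8.05 and 7.80 in wild-type mice after the fast and 6.72 and 6.88 in Cnot3+/- mice, a genotype difference of -1.12 that did not pass (limma adjusted p = 0.876). G0s2 was lower on the same Cnot3+/- arrays, and both genes had their lower fed reading on array 1. Angptl8 was picked for its wide fed gap, so that a wide gap is shared with G0s2 is no separate result. Igfbp1, picked in the same way, had its lower fed reading on array 2. Its genotype difference was 0.96 and did not pass (limma adjusted p = 0.917).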
